A study of Mus musculus with 30 samples.

Results

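The clustered protocadherins were described in a bead-selected ganglion cell fraction and in the other cells of the newborn mouse retina. The members were the rows of both deposited RNA tables whose symbol is Pcdha, Pcdhb or Pcdhg, with an optional letter a, b or c for the subtype, followed by a number, which gave 24 of 38720 gene symbols. They were 1 row of the alpha cluster (Pcdha2), all 22 genes of the beta cluster (Pcdhb1 to Pcdhb22) and 1 row of the gamma cluster (Pcdhga9). RefSeq lists 58 genes of this naming pattern on chromosome 18 of GRCm38, of which 14 are alpha, 22 beta and 22 gamma genes. The C-type genes Pcdhac1, Pcdhac2, Pcdhgc3, Pcdhgc4 and Pcdhgc5 and the remaining alpha and gamma genes had no row under their own symbols, so they were not analysed here.

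Clustered protocadherins are adhesion molecules of the cadherin superfamily that sit in the membrane of neurons and bind the same isoform on a neighbouring cell. Each neuron uses only some of the promoters of the clusters. The factor CTCF and the cohesin complex bring an enhancer to the chosen promoter, and DNA methylation keeps the others silent. Every alpha or gamma transcript joins a variable first exon to constant exons shared by its cluster, whereas each beta gene is a single exon with its own ending. In the mouse retina the gamma cluster is known for self-avoidance of the dendrites of starburst amacrine cells and for the survival of interneurons and ganglion cells.

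RNA had been sequenced from pups at postnatal day 0, and 9 libraries in 3 groups of 3 are contained in the deposited tables. The mutant non-RGC group holds the other retinal cells of mutant pups, pooled together. The mutant RGC group holds cells labelled retinal ganglion cells (RGCs) of mutant pups, and the WT RGC group holds those of C57BL/6 pups. These cells had been taken from papain-digested retinas with magnetic beads against CD90, the product of Thy1, so Thy1 itself is no independent check of the fractions. The bead-selected libraries also held reads of progenitor and microglia markers, as given below. Values of the RGC groups are therefore those of a cell fraction and not of ganglion cells alone. The labels give mutants as Math5Cre; Ezh2f/fG9af/+ or Math5Cre; Ezh2f/f, and which of these genotypes the tables hold is not stated. Both carry floxed copies of Ezh2, the methyltransferase of the Polycomb complex PRC2, to be removed by Cre. In the first of these genotypes 1 copy of G9a, now named Ehmt2 and coding for a methyltransferase of histone H3, is floxed as well. Math5, also called Atoh7, is switched on in progenitors from which ganglion cells and some other retinal neurons arise, so Cre is not confined to ganglion cells and the mutant non-RGC group can hold recombined cells.

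Libraries held between 10559040 and 12269290 reads, and the 24 members together took 0.0735% ± 0.00426 of the reads in mutant non-RGCs, 0.121% ± 0.0151 in mutant RGCs and 0.158% ± 0.0221 in WT RGCs (SD, n = 3 each). Libraries were recovered from the deposited means and carry the numbers 1 to 3 by falling size factor, so a number does not tie libraries across groups. The labels do not say that libraries of a group came from different pups, and p-values measure only the spread between these libraries. Library 1 of the mutant RGCs, library 3 of the WT RGCs and library 3 of the mutant non-RGCs stood apart from the other libraries of their groups. A chi-square of the counts of library pairs, averaged over genes, was 12.02 and 13.33 for pairs with that library and 3.72 without it in mutant non-RGCs, 18.2 and 20.18 against 1.89 in mutant RGCs, and 17.89 and 21.14 against 4.97 in WT RGCs. Ezh2 averaged 1906 ± 48.9 normalised reads in mutant RGCs and 1289 ± 242 in WT RGCs, a log2 difference of 0.58 (adjusted p = 0.0292, limma). Its whole-gene count was thus higher in the libraries labelled mutant. The floxed exons are not given in the labels and a count over the whole gene does not test their loss. The libraries labelled mutant and WT are called so throughout, and each direction below rests on those labels.

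Within the alpha and gamma clusters the annotation does not separate genes at their 3′ ends. The RefSeq span of Pcdha2 is chr18:36939205-37187661, and the 14 alpha genes all end between positions 37187657 and 37188897. The span of Pcdhga9 is chr18:37736936-37841863, and the 22 gamma genes all end between positions 37840489 and 37841873. The exons counted for these rows are not stated, so the values of Pcdha2 and Pcdhga9 are those of the alpha row and the gamma row and are not read as the level of a single isoform. The 22 beta genes lie between positions 37264998 and 37521419 and have lengths of 2340 to 5271 bases, and their spans do not overlap. Beta genes are similar in sequence, and how reads matching several of them were counted is not stated beyond the use of primary alignments, so values of single beta genes can hold reads of a close copy. No setting for strand is given either.

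The alpha row, the summed beta genes and the gamma row were each lowest in mutant non-RGCs, intermediate in mutant RGCs and highest in WT RGCs by group mean. Values in this paragraph are normalised reads on 1 scale for all 9 libraries. The alpha row had 1007, 1137 and 728 in mutant non-RGCs, 2182, 3614 and 3487 in mutant RGCs, and 6426, 6554 and 4239 in WT RGCs. No library of one group overlapped with another group in the alpha row. The summed beta genes had 2707, 2842 and 2582 in mutant non-RGCs, 4042, 4378 and 4368 in mutant RGCs, and 5474, 6011 and 4402 in WT RGCs. Here too the groups did not overlap, although library 3 of the WT RGCs lay close above the mutant RGCs. The gamma row had 4033, 4460 and 4337 in mutant non-RGCs, 5470, 6738 and 6685 in mutant RGCs, and 8323, 8714 and 6771 in WT RGCs. Its lowest WT library was just above the highest mutant RGC library on this scale. In bulk libraries, fewer cells of a type and less RNA per cell cannot be told apart.

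**Figure D1:**
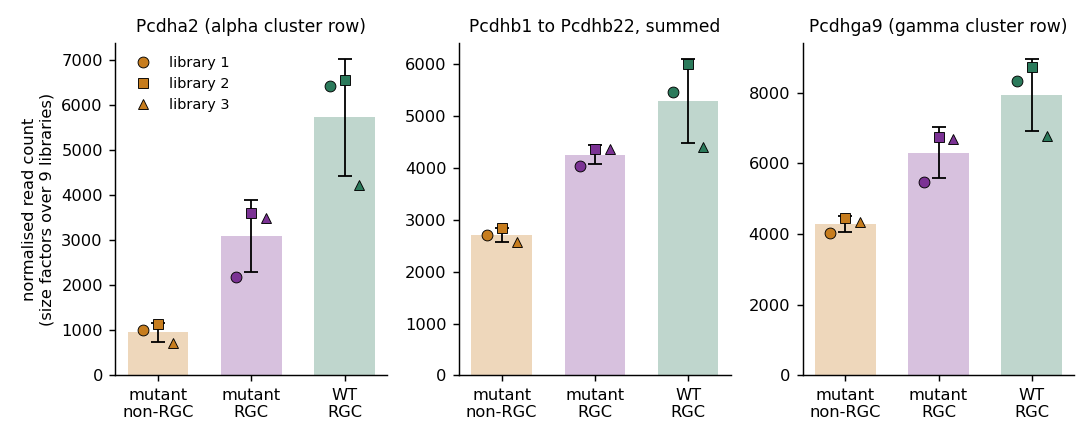
Normalised reads of the alpha row, the summed beta genes and the gamma row in each of the 9 libraries, on a linear axis that starts at 0, with the group mean and SD. All 3 quantities are lowest in mutant non-RGCs, and the alpha row has the widest gap, with means of 957 in mutant non-RGCs, 3094 in mutant RGCs and 5740 in WT RGCs.

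The alpha row, the beta sum and the gamma row did not all differ by the same proportion. Group means in mutant RGCs over those in WT RGCs were 0.54 for the alpha row, 0.80 for the beta sum and 0.79 for the gamma row. Group means in mutant non-RGCs over those in mutant RGCs were 0.31 for the alpha row, 0.64 for the beta sum and 0.68 for the gamma row. Counted lengths cancel when a ratio of these quantities is set against the same ratio in another library. The gamma row over the alpha row was 4.0, 3.92 and 5.96 in mutant non-RGCs, 2.51, 1.86 and 1.92 in mutant RGCs, and 1.3, 1.33 and 1.6 in WT RGCs, with no overlap between groups. The gamma row over the beta sum was 1.58 ± 0.0951 in mutant non-RGCs, 1.47 ± 0.105 in mutant RGCs and 1.5 ± 0.0468 in WT RGCs (SD, n = 3 each), a spread within which the groups overlapped. These ratios carry no test, since the members were chosen with results of these data known.

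In mutant RGCs against WT RGCs, which asks how RNA of the bead-selected cells differs between pups labelled mutant and WT, the alpha row and the beta genes Pcdhb9 and Pcdhb14 were lower. A gene was called when the adjusted p of limma, fitted to all 15277 genes with a mean of at least 10 normalised reads, was under 0.05. Of 23 members tested, 3 were called lower, which is 13.0% against 12.3% of all genes tested, and 0 were called higher, where 13.7% of all genes were. With an unadjusted p under 0.05, 7 members were lower and 0 higher, and the authors' deposited table calls 4 lower (6.48% of all genes) and 0 higher (5.45% of all genes). The share of members called is close to that of all genes and is no result about the members. In 7 members (30.4%) all mutant RGC libraries lay below all WT RGC libraries, against 24.9% of all genes tested, and in 1 member, Pcdhb4, all lay above, against 26.2%. The fitted difference was negative in 22 of 23 members, where 49.6% of all genes were negative, and the median log2 difference was -0.25 over members and 0.004 over all genes. Log2 differences are of normalised reads plus 1, and they understate changes of low genes.

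The alpha row had the most negative difference of all members. Pcdha2 had 2162, 3733 and 3563 normalised reads in mutant RGCs, against 6373, 6466 and 4219 in WT RGCs. The groups did not overlap, and the lowest library was library 1 in mutant RGCs and library 3 in WT RGCs. The mean was 3152 ± 862 in mutant RGCs and 5686 ± 1271 in WT RGCs (SD, n = 3 each), a log2 difference of -0.87 (SE 0.26, adjusted p = 0.0487, limma). The call was lost when library 1, 2 or 3 of the mutant RGCs (adjusted p = 0.0772, 0.0769 and 0.0798) or library 1 or 2 of the WT RGCs (0.1625 and 0.1456) was left out of the limma fit, with log2 differences of -0.61 without mutant RGC library 1 and -1.07 without WT RGC library 3.

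Among the beta genes, Pcdhb9 and Pcdhb14 were called. Pcdhb9, a single-exon beta gene, had 185, 265 and 275 normalised reads in mutant RGCs, against 360, 468 and 400 in WT RGCs. Every mutant RGC library was below every WT RGC library, and the log2 difference was -0.77 (SE 0.18, adjusted p = 0.0324, limma). Pcdhb14 had 148, 161 and 166 in mutant RGCs, against 266, 290 and 192 in WT RGCs. The mutant RGC libraries were close together and below the spread of the WT RGC libraries, and the log2 difference was -0.63 (SE 0.18, adjusted p = 0.0445, limma). Pcdhb13 had 79.8, 97.4 and 115 in mutant RGCs, against 172, 192 and 127 in WT RGCs, and missed the threshold (log2 -0.73, adjusted p = 0.0509, limma), although the authors' deposited table calls it with an adjusted p of 0.0229. The call of Pcdhb9 was lost in limma without library 2 or 3 of the mutant RGCs (adjusted p = 0.0736 and 0.0671) or without library 1 or 2 of the WT RGCs (0.1107 and 0.1093). Pcdhb14 lost its call without any single library other than library 3 of the WT RGCs, with adjusted p from 0.0889 to 0.1578 in limma.

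The other members tested had log2 differences from -0.73 to 0.23 and were not called, with adjusted p from 0.0509 to 0.9078 in limma. Pcdhb12, Pcdhb17 and Pcdhb20 also had no overlap between groups. The highest beta gene, Pcdhb17, had 570, 611 and 576 normalised reads in mutant RGCs, against 671, 724 and 646 in WT RGCs (log2 -0.21, adjusted p = 0.0785, limma). Pcdhb4 went the other way, with 248, 228 and 219 in mutant RGCs, against 214, 216 and 166 in WT RGCs, the groups being just apart (log2 0.23, SE 0.15, adjusted p = 0.266, limma). The gamma row Pcdhga9 had 5420, 6960 and 6831 in mutant RGCs, against 8254, 8597 and 6738 in WT RGCs. Library 3 of the WT RGCs lay among the mutant RGC libraries, and the log2 difference of -0.30 (95% interval -0.62 to 0.03) was not called (adjusted p = 0.1364, limma).

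The counts of this comparison depended on single libraries, above all on library 3 of the WT RGCs. Without it, 10 members were called lower and 19 had no overlap, with a median log2 difference of -0.39, and over all 15305 genes tested 3096 were called lower, against 1879 with all libraries. Without library 1 of the mutant RGCs, 1 member was called lower and 7 had no overlap, with a median of -0.18, and 1171 of all genes were called lower. Without library 2 or 3 of the mutant RGCs, or library 1 or 2 of the WT RGCs, 0 members were called, and over all genes 3, 9, 9 and 8 were called, against 3971 with all libraries. The share of all genes without overlap was not counted in these smaller fits. Groups with fewer libraries separate more easily, so the members without overlap in these fits are not compared with those of the full fit.

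In mutant non-RGCs against mutant RGCs, which asks how the remaining retinal cells differ from the bead-selected cells of pups labelled mutant, members of all 3 clusters were lower. Whether both fractions came from the same mutant genotype is not stated. Of 23 members tested among 15178 genes, 14 were called lower by the same limma test, which is 60.9% of members against 12% of all genes tested. No member, 0 of 23, was called higher, where 5.07% of all genes were. At an unadjusted p under 0.05 in limma, 22 members were lower and 0 higher, and the share of all genes at that threshold was not counted. The authors' deposited table calls 12 lower (5.31% of all genes) and 0 higher (1.17% of all genes), with 11 of the 12 among the 14. In 22 members (95.7%) every mutant non-RGC library lay below every mutant RGC library, against 20.6% of all genes tested, and in 0 members every library lay above, against 17.1%. Pcdhb15 alone overlapped. All 23 differences were negative, where 48.1% of all genes were, and the median log2 difference was -0.65 over members and 0.013 over all genes. The mutant RGC libraries serve in both comparisons, so the comparisons are not independent of each other. Their normalised values differ slightly between the comparisons because the authors scaled each table on its own.

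**Figure D2:**
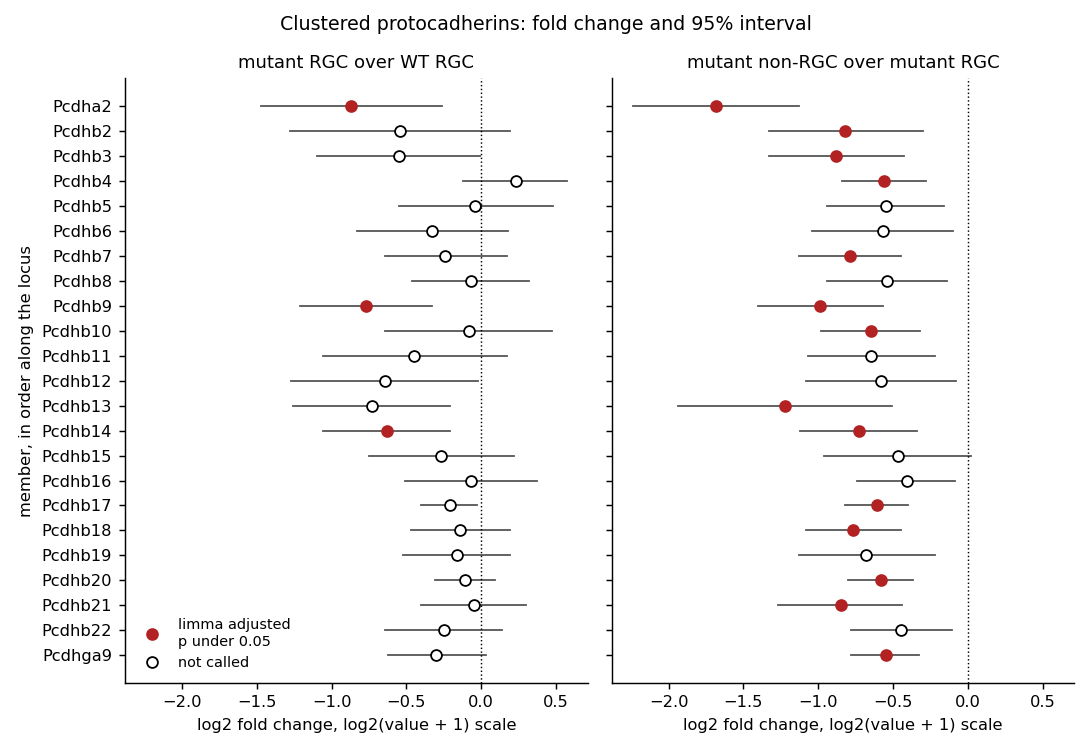
Log2 difference of each of the 23 tested members with its 95% interval, for mutant RGCs over WT RGCs on the left and mutant non-RGCs over mutant RGCs on the right, with filled points for members called by limma. The differences run from -0.87 for Pcdha2 to 0.23 for Pcdhb4 between genotypes, and from -1.68 for Pcdha2 to -0.41 for Pcdhb16 between fractions.

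The alpha row again differed most. Pcdha2 had 1050, 1182 and 753 normalised reads in mutant non-RGCs, against 2230, 3794 and 3646 in mutant RGCs. The highest mutant non-RGC library was far below the lowest mutant RGC library. The mean was 995 ± 220 in mutant non-RGCs and 3224 ± 864 in mutant RGCs (SD, n = 3 each), a log2 difference of -1.68 (SE 0.24, adjusted p = 0.0087, limma). This call was kept without each library in turn. The gamma row Pcdhga9 had 4204, 4636 and 4483 in mutant non-RGCs, against 5591, 7075 and 6992 in mutant RGCs, also without overlap. Its log2 difference was -0.55 (SE 0.10, adjusted p = 0.0134, limma), and the call was lost without library 1 of the mutant non-RGCs (adjusted p = 0.0644) or library 2 or 3 of the mutant RGCs (0.0569 and 0.0564).

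The called beta genes were Pcdhb2, Pcdhb3, Pcdhb4, Pcdhb7, Pcdhb9, Pcdhb10, Pcdhb13, Pcdhb14, Pcdhb17, Pcdhb18, Pcdhb20 and Pcdhb21. The authors' deposited table does not call Pcdhb2, Pcdhb4 or Pcdhb10, with adjusted p of 0.0673, 0.0661 and 0.056. Pcdhb2 also lost its limma call with no filter on low values (adjusted p = 0.0676), with a mean of at least 50 (0.0562) and with voom (0.058). Pcdhb17 had 405, 415 and 356 normalised reads in mutant non-RGCs, against 588, 621 and 589 in mutant RGCs. Its libraries were tight within each group, and its log2 difference of -0.61 (SE 0.09) had the smallest adjusted p of the beta genes, 0.0091 in limma. Pcdhb20 had 230, 221 and 225 in mutant non-RGCs, against 344, 336 and 334 in mutant RGCs, a log2 difference of -0.58 (SE 0.09, adjusted p = 0.0107, limma). Pcdhb13 had the most negative beta difference but also a wide spread, with 31.1, 64.4 and 36.1 in mutant non-RGCs, against 82.3, 99.0 and 118 in mutant RGCs (log2 -1.22, SE 0.31, adjusted p = 0.0353, limma). Pcdhb9 had 133, 114 and 121 in mutant non-RGCs, against 191, 269 and 282 in mutant RGCs. These groups were well apart, with a log2 difference of -0.99 (SE 0.18, adjusted p = 0.0141, limma).

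Other beta genes were called as well. Pcdhb4, the gene that ran against the others between genotypes, had 151, 159 and 171 in mutant non-RGCs, against 255, 231 and 224 in mutant RGCs (log2 -0.56, adjusted p = 0.0216, limma). Pcdhb7 had 157, 199 and 200 in mutant non-RGCs, against 284, 354 and 324 in mutant RGCs (log2 -0.79, adjusted p = 0.0145, limma). Pcdhb18 had 145, 146 and 117 in mutant non-RGCs, against 233, 226 and 234 in mutant RGCs (log2 -0.77, adjusted p = 0.0132, limma). In each of these genes the fractions were separated by more than the spread within either. The 9 members that were not called had log2 differences from -0.68 to -0.41 and adjusted p from 0.0503 to 0.1774 in limma, so their range overlapped with that of the called members, -1.68 to -0.55. The smallest difference was that of Pcdhb16, with 261, 221 and 193 in mutant non-RGCs, against 299, 320 and 276 in mutant RGCs (log2 -0.41, adjusted p = 0.0837, limma).

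The number of calls between fractions varied with the libraries, while the median difference of members varied little. Without library 1 of the mutant RGCs 18 members were called lower, beside 2361 of all genes, where 1820 of all genes were called lower with all libraries. Without library 3 of the mutant non-RGCs 13 members were called lower, beside 1665 of all genes, and without library 2 of the mutant non-RGCs 9 were, beside 1066 of all genes. Leaving out library 1 of the mutant non-RGCs, or library 2 or 3 of the mutant RGCs, left 2 members called in each case, and over all genes 438, 595 and 621 were called in these 3 fits, against 2590 with all libraries. Over the fits without single libraries the median log2 difference of members ranged from -0.70 to -0.60, and 22 or 23 members had no overlap. The share of all genes without overlap was not counted in these fits. Single members varied more, such as Pcdhb13 from -1.53 to -1.02 and Pcdha2 from -1.93 to -1.49.

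Within the beta cluster nearly the whole set of genes was detected in every library. In all 9 libraries 21 of the 22 beta genes had at least 10 reads. Pcdhb1, which sits at the start of the cluster, had 0 reads in each mutant non-RGC library, 1 read in library 3 of the mutant RGCs and 1 read in library 2 of the WT RGCs, and it was not tested. A count of 0 allows up to 3 reads per library, for counting error only. The effective number of beta genes, the exponential of the Shannon entropy of their shares, was 17.92 ± 0.276 in mutant non-RGCs, 18.33 ± 0.468 in mutant RGCs and 18.6 ± 0.553 in WT RGCs (SD, n = 3 each), ranges that overlapped. Bulk libraries sum over many cells, so this number says nothing of how many genes a single cell used.

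**Figure D3:**
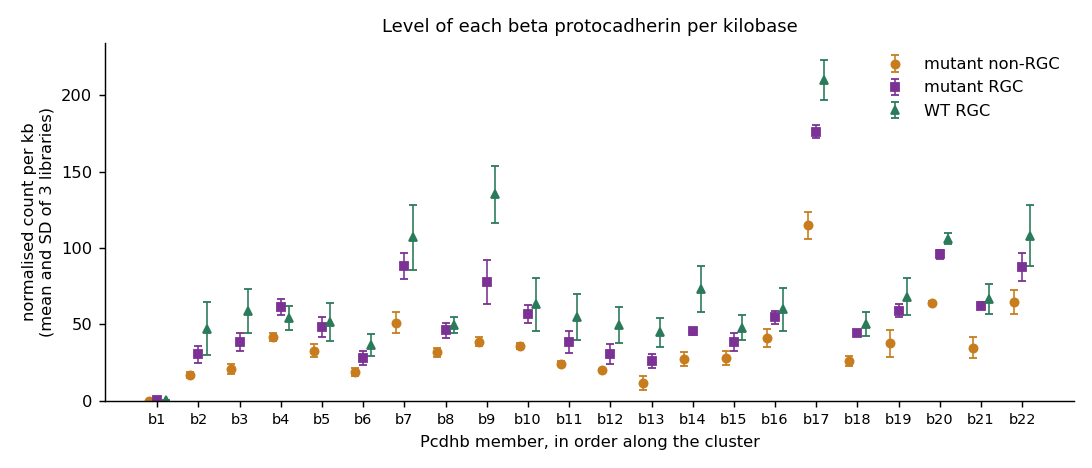
Normalised reads per kilobase of the 22 beta genes in order along the cluster, as group means with SD for mutant non-RGCs, mutant RGCs and WT RGCs (n = 3 each). Pcdhb17 is highest in every group, Pcdhb1 is at or near 0, and each of the other genes has its lowest group mean in mutant non-RGCs.

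Per kilobase of gene, Pcdhb17 had the highest beta level in each group, at 115 ± 8.84 normalised reads per kilobase in mutant non-RGCs, 176 ± 4.31 in mutant RGCs and 210 ± 13.2 in WT RGCs (SD, n = 3 each). It was well separated from the next gene of each group, and it took 13.9% of beta reads in mutant non-RGCs, 13.6% in mutant RGCs and 13.1% in WT RGCs by group mean. The next levels were those of Pcdhb22 in mutant non-RGCs (64.5 ± 7.91 per kilobase), Pcdhb20 in mutant RGCs (95.8 ± 2.91) and Pcdhb9 in WT RGCs (135 ± 18.6). Neighbours in the order behind Pcdhb17 did not differ beyond their spread in several cases. Pcdhb22 and Pcdhb20 had 64.5 ± 7.91 and 63.9 ± 1.09 per kilobase in mutant non-RGCs, and Pcdhb22, Pcdhb7 and Pcdhb20 had 108 ± 19.8, 107 ± 21.2 and 106 ± 3.6 in WT RGCs. The lowest level above Pcdhb1 was that of Pcdhb13 in mutant non-RGCs (11.4 ± 4.68) and mutant RGCs (26.0 ± 4.4), and that of Pcdhb6 in WT RGCs (36.4 ± 7.19).

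The place of Pcdhb9 among beta genes differed between groups, at rank 7 in mutant non-RGCs, 5 in mutant RGCs and 2 in WT RGCs by level per kilobase. As a share of beta reads, which sets aside the level of the whole cluster, Pcdhb9 had 4.62%, 5.86% and 6.17% in mutant RGCs, against 6.62%, 7.90% and 9.14% in WT RGCs. Pcdhb14 had 3.69%, 3.56% and 3.72% in mutant RGCs, against 4.90%, 4.89% and 4.38% in WT RGCs. Both shares were lower in every mutant RGC library, and the same was seen for Pcdhb12 and Pcdhb13. Pcdhb4 had a higher share in every mutant RGC library, with 6.18%, 5.03% and 4.90%, against 3.95%, 3.64% and 3.78% in WT RGCs. For the other 16 beta genes with reads, shares overlapped between genotypes. Between fractions the shares of 20 beta genes overlapped, and only Pcdhb16 was apart, with 9.24%, 7.5% and 7.25% in mutant non-RGCs, against 7.23%, 6.97% and 6.04% in mutant RGCs. Shares of 1 library sum to a fixed total, so they are not independent of each other and were not tested.

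The group means of the alpha row, the beta sum and the gamma row had the same order as those of ganglion cell markers. Summed over 20 markers, these had 7921 to 14184 normalised reads in mutant non-RGCs, 22818 to 35642 in mutant RGCs and 46107 to 53817 in WT RGCs. Between genotypes 10 of the 20 markers fell and 0 rose by limma, with a median log2 difference of -0.75, and between fractions 13 fell and 0 rose, with a median of -1.96. Thy1, the gene of the bead target, is 1 of the 20 markers and of the 10 that fell between genotypes. The sums and medians of this list are therefore not wholly independent of the bead selection. The shares of all genes called lower, against which the counts of the marker lists are read, were 12.3% between genotypes and 12% between fractions, and those called higher were 13.7% and 5.07%. In each group the library with the lowest alpha row was also the one with the lowest ganglion cell markers, namely library 3 of the mutant non-RGCs, library 1 of the mutant RGCs and library 3 of the WT RGCs. Elavl4, an RNA-binding protein of neurons, and Nefh, the heavy neurofilament chain, were among those lower in mutant non-RGCs (log2 -1.33 and -1.29 against mutant RGCs, adjusted p = 0.0065 and 0.007, limma). The gamma row did not follow this in mutant non-RGCs, where it was lowest in library 1 (4033) and had 4337 in library 3, and Pcdhb4 was not lower in mutant RGCs than in WT RGCs. No marker of this list was at 0 in any group, and its part in the differences of the protocadherins was not tested.

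**Figure D4:**
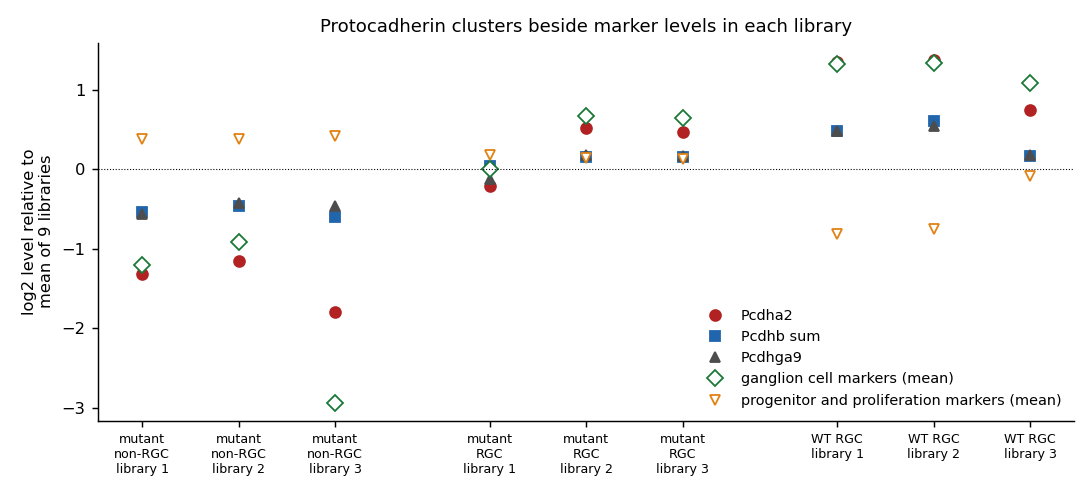
Level of the alpha row, the beta sum, the gamma row and of the ganglion cell and progenitor markers in each of the 9 libraries, as log2 relative to the mean over libraries, where a marker list is the mean log2 level of its genes. In mutant non-RGC library 3 the alpha row is at -1.791 and the ganglion cell markers at -2.948, while in WT RGC library 3 they are at 0.751 and 1.084.

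Markers of other cells moved as well. Progenitor and proliferation markers, 18 genes, summed to 47491 to 47861 normalised reads in mutant non-RGCs, 40504 to 41172 in mutant RGCs and 21125 to 34402 in WT RGCs, the highest WT value being that of library 3. Of them 11 rose and 0 fell in mutant RGCs against WT RGCs, and 5 rose and 0 fell in mutant non-RGCs against mutant RGCs. Of 12 amacrine cell markers 7 rose and 1 fell between genotypes, and 1 rose and 1 fell between fractions. Of 12 photoreceptor markers 7 rose and 0 fell between genotypes, and 0 rose and 1 fell between fractions. Microglia markers, 12 genes, summed to 208 to 250 in mutant non-RGCs, 2277 to 8537 in mutant RGCs and 3657 to 5277 in WT RGCs, and all 12 fell between fractions while none of the 12, 0 in either direction, was called between genotypes. The 8537 was that of library 1 of the mutant RGCs, which also had the lowest alpha row of its group, against 2564 and 2277 in libraries 2 and 3. Summed vascular and astrocyte markers were 9676 in that library, against 5473 and 5791 in the others of its group. Of 8 tested vascular and astrocyte markers 1 rose between genotypes and 0 were called between fractions. The defining markers of these cell types were above 0 in every group, and their part in the results on protocadherins was not tested.

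Among regulators of promoter choice and silencing of the clusters, most called genes were higher in mutant RGCs than in WT RGCs. Of 27 tested, 16 rose and 1 fell, with a median log2 difference of 0.31, beside the 13.7% higher and 12.3% lower calls and the median of 0.004 over all genes. The cohesin subunits Stag2 and Stag1 rose by 0.64 and 0.52 on the log2 scale, the cohesin loader Nipbl by 0.50 and Smchd1, a chromatin protein that represses clustered protocadherins in the mouse, by 0.49 (adjusted p = 0.0215 each, limma). Ctcf rose by 0.31 (adjusted p = 0.0295, limma), although the authors' deposited table gives it an adjusted p of 0.2232. Ehmt2 was the gene that fell, with 2753 ± 362 normalised reads in mutant RGCs and 3702 ± 143 in WT RGCs (SD, n = 3 each; log2 -0.43, adjusted p = 0.0332, limma). Between fractions Dnmt3b, a DNA methyltransferase, and Ezh2 rose in mutant non-RGCs, with log2 differences of 0.55 and 0.25 against mutant RGCs (adjusted p = 0.0231 and 0.0242, limma). The genotype calls of these regulators were lost without library 2 or 3 of the mutant RGCs or library 1 or 2 of the WT RGCs, with adjusted p from 0.067 to 0.1238 for Stag2, Stag1, Nipbl, Smchd1, Ctcf and Ehmt2 in limma.

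Among 28 partners and effectors of clustered protocadherins, 3 rose and 2 fell in mutant RGCs against WT RGCs, beside 13.7% of all genes called higher and 12.3% called lower. Nlgn1, a neuroligin of the postsynaptic side, rose by 0.61 on the log2 scale and Wasf2, a subunit of the WAVE complex that branches actin, by 0.56 (adjusted p = 0.0202 and 0.0388, limma). Ret, a receptor tyrosine kinase found with protocadherins in a complex, fell by 0.95 and the kinase Pak1 by 0.47 (adjusted p = 0.0379 and 0.0384, limma). In mutant non-RGCs against mutant RGCs 7 fell and 0 rose, beside 12% of all genes called lower and 5.07% called higher, among them Ret (log2 -1.33), Pak1 (-0.57), Prkca (-0.30) and Ptk2b, a focal adhesion kinase that the alpha and gamma proteins inhibit (-2.37, at a mean of 13.2 normalised reads in mutant non-RGCs and 72.2 in mutant RGCs). For these 28 genes the median log2 difference was -0.01 between genotypes and -0.13 between fractions.

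Other genes for self-avoidance and recognition of retinal neurons were called in both directions between genotypes. Of 21 tested, 2 rose and 5 fell in mutant RGCs against WT RGCs, and 0 rose and 7 fell in mutant non-RGCs against mutant RGCs, with a median log2 difference of -0.37 in each comparison. Over all genes, 13.7% rose and 12.3% fell between genotypes, and 5.07% rose and 12% fell between fractions. Megf10, a receptor that spaces the mosaics of starburst and horizontal cells, rose by 1.06 between genotypes and the semaphorin receptor Plxna4 by 0.63 (adjusted p = 0.0202 and 0.0456, limma). Dscaml1, an adhesion molecule of the immunoglobulin superfamily, fell by 0.74 and the semaphorin Sema6a by 0.60 (adjusted p = 0.0248 and 0.0439, limma). Between fractions Sema6a (log2 -0.80), the sidekick gene Sdk1 (-0.90), the contactin Cntn1 (-0.56) and Flrt2 (-0.44) were lower in mutant non-RGCs.

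Genes beside the clusters on the chromosome moved in both directions. Of 23 tested neighbours, 2 rose and 5 fell in mutant RGCs against WT RGCs, with a median log2 difference of -0.15, and 2 rose and 4 fell in mutant non-RGCs against mutant RGCs, with a median of 0.01. These counts stand beside 13.7% higher and 12.3% lower calls over all genes between genotypes, and 5.07% higher and 12% lower calls between fractions. Taf7, a subunit of the general transcription factor TFIID that lies between the beta and gamma clusters, had 435, 457 and 455 normalised reads in mutant RGCs, against 281, 266 and 366 in WT RGCs. It was higher in every mutant RGC library (log2 0.57, adjusted p = 0.032, limma). Between fractions Taf7 had 463, 429 and 540 in mutant non-RGCs, against 448, 465 and 465 in mutant RGCs, which overlapped (log2 0.05, adjusted p = 0.7878, limma). Spry4, an inhibitor of receptor tyrosine kinase signalling, fell by 0.95 between genotypes and Rnf14, a ubiquitin ligase, by 0.48 (adjusted p = 0.0174 and 0.0268, limma). Pcdh1, a protocadherin outside the clusters, was lower in mutant non-RGCs by a log2 difference of -1.26 (adjusted p = 0.0041, limma), while Tmco6 was higher (0.56, adjusted p = 0.011, limma).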

How the data were processed

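Poly(A) RNA of bead-separated retinal cells was sequenced, per the labels. Per the submitters' processing notes the authors used STAR 2.3, featureCounts, DESeq and FastQC with mm10, and the table names state primary alignments without duplicates. Per the file headers, the deposited values are mean normalised counts of each condition, their ratio (fold change), its log2 value, and the authors' p-value and adjusted p-value. The authors averaged libraries, and strand setting and annotation are not given in the sources used here.

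Whole read counts of each library were solved from the means as the combination of 3 whole numbers over the size factors that met each mean within 1e-09 and at least 10 times closer than the next best. This held for 99.979% to 100.0% of genes above 0, and 23953 of 23953 mutant RGC genes were identical from both tables. Recovery and test were checked on simulated data. For recovery the simulated means lay below the counts of Pcdhga9 in every library and of Pcdha2 in every RGC library. A count model was not used as the main test, although counts were recovered. Instead, limma 3.58.1 (R 4.3.3, variance trend) was fitted to log2(normalised read + 1) of the 6 libraries of a comparison, for genes with a mean of at least 10. Adjustment was by Benjamini-Hochberg over all genes tested, with calls under 0.05. Means and SDs are of normalised reads. The alternatives were pseudocounts of 0.5 and 5, no filter, a mean of at least 50, scaling by total or upper quartile, voom, the authors' adjusted p-value, and leaving out each library. Coordinates were taken from RefSeq on GRCm38 (mm10). The members and lists were chosen with earlier results of these data known. The text names members called in either comparison, the highest and lowest beta gene, untested members, up to 4 called genes of each list by adjusted p, and Ezh2, Ehmt2, Ctcf and Smchd1. A gene that this rule names is not reported here. Members such as Pcdhb12, Pcdhb15, Pcdhb16 and Pcdhb22 and Taf7 were added after their values were seen. ChIP libraries and the other RNA groups were not analysed here.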

Additional observations from a re-analysis of the deposited data

How the results depend on the processing

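Between genotypes, the 3 members called lower became 1 with no filter on low values and 0 to 10 when single libraries were left out. The 7 without overlap became 7 to 19 without single libraries, where smaller groups separate more easily and the share of all genes was not counted. Pcdha2 and Pcdhb14 lost their calls with no filter (adjusted p = 0.0536 and 0.0546, limma), where more genes are tested. Uncalled members whose log2 difference turned positive were Pcdhb5 by total-count scaling (0.01) and, without single libraries, Pcdhb5 (-0.24 to 0.12), Pcdhb8 (-0.16 to 0.00), Pcdhb10 (-0.33 to 0.07), Pcdhb16 (-0.27 to 0.08) and Pcdhb21 (-0.13 to 0.06); the cause was not tested. Between fractions, the 14 members called lower became 2 to 18 without single libraries and 12 to 15 under the other alternatives. The median log2 difference of members stayed negative in every fit, at -0.39 to -0.16 between genotypes and -0.70 to -0.60 between fractions without single libraries, and no member was called higher. Over all genes, 770 higher and 1820 lower calls between fractions became 1465 and 1601 by total-count scaling, and 2092 higher and 1879 lower calls between genotypes became 2013 and 2288 by upper-quartile scaling. No paired analysis was possible because the tables carry no replicate numbers. Depth left only Pcdhb1 untested among the members. Low counts also limit how precisely other members were measured, such as Pcdhb13 with 31, 64 and 34 reads and Pcdhb2 with 48, 55 and 41 reads in mutant non-RGCs.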
